A study of Mus musculus with 12 samples.

Results

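The genes described here are 10 components of the transforming growth factor beta (TGF-beta) pathway, taken by name from the 55401 genes of the deposited expression table: the ligands Tgfb1, Tgfb2 and Tgfb3, the receptors Tgfbr1 and Tgfbr2, the latent TGF-beta binding proteins Ltbp1, Ltbp3 and Ltbp4, and the nuclear repressors Skil and Tgif1. All 10 were found, and all 10 were among the 13792 genes tested, the genes that reached 10 normalized counts in 6 or more libraries. RNA was measured in 12 libraries of murine airway organoids, 6 harvested 4.5 h after ablation of 10 cells in each of 45 organoids with a femtosecond (fs) laser, and 6 from dishes of 45 untreated organoids, to ask which transcripts change early in epithelial repair. The organoids, spheres of basal and luminal epithelium, were grown from lung cells of adult C57BL/6J wild-type mice. In both groups the cells carried a lentiviral vector for a histone 2A-mCherry fusion protein driven by a Trp63 promoter taken from human DNA. Growth medium held serum-containing L-WRN conditioned supernatant, epidermal growth factor and the kinase inhibitor Y-27632 in both groups, and was exchanged for FluoroBrite DMEM before the laser treatment. Ablation and control libraries carry the numbers 1, 3, 4, 5, 6 and 7, and libraries of 1 number share passage and culture day, which makes 6 pairs. Pairs 1, 3 and 5 form library set 1 and pairs 4, 6 and 7 library set 2, as read from 2 runs of library numbers. The titles of controls 4, 6 and 7 hold the word ablation although their treatment label says control. Like the titles of the other controls, they carry a C after the number, which the titles of ablation libraries lack. Because of the word in these titles, the calls described are also given for library set 1 alone, which has none of these libraries. The labels do not say whether the dishes of a group stem from separate mice, so p-values measure the spread between dishes.

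TGF-beta ligands are secreted as latent complexes in which a latent TGF-beta binding protein can tether the ligand to the extracellular matrix until integrins or proteases release it. The free ligand brings together the type II receptor (Tgfbr2) and the type I receptor (Tgfbr1), which phosphorylates the transcription factors Smad2 and Smad3, and Skil and Tgif1 hold back transcription by these Smads. In airway epithelium the pathway is known for restraining proliferation and for roles in migration, matrix deposition and basal cell differentiation.

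The sequences before the start sites of Tgfb2 and Tgif1 are shown because these members had the lowest p-values in the paired model below. They are the 250 bases ahead of a RefSeq start on GRCm38.p6, read 5′ to 3′ on the minus strand, where both genes lie, at chr1:186705990-186706239 for Tgfb2 and chr17:70853533-70853782 for the most upstream of 5 Tgif1 windows. Both strands were searched for the Smad binding element CAGAC. The search also covered the AP-1 site, which was spelled as TGANTCA and is bound by Jun and Fos proteins. A cyclic AMP response element was taken as the unbroken palindrome TGACGTCA. GC boxes, the sites of Sp1 and its relatives, were taken as GGGCGG. The TATA box, which positions the polymerase at some promoters, was taken as TATAAA. None of these motifs contains another, and capitals mark every match in the windows shown.
Tgfb2: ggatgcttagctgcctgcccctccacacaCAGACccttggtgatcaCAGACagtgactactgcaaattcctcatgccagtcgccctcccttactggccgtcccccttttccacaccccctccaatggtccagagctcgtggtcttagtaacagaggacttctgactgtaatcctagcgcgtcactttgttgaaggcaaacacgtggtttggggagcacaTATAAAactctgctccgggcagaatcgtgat
Tgif1: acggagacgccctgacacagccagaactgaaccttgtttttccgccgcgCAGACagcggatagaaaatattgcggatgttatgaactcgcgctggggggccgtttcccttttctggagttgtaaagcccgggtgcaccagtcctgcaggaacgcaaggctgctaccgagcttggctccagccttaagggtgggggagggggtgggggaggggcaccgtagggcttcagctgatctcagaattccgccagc

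The Tgfb2 window held 2 Smad elements, starting 221 and 204 bases before the start site, and a TATA box 31 bases before it. The Tgif1 window shown held 1 Smad element, 201 bases before the start site, and no TATA box. In their order along the gene, the other 4 Tgif1 windows held 2, 0, 1 and 0 Smad elements and 0, 5, 1 and 0 GC boxes, and none of them a TATA box. Among the 32851 RefSeq windows of this length, 42.2% held a Smad element, 12.4% a TATA box, 32.7% a GC box, 6.75% an AP-1 site and 1.55% a cyclic AMP response element, so Smad elements are common in such windows. The most upstream Ltbp4 window had 3 GC boxes, its other windows, which overlap each other, had 5 and 7, and none of the 3 windows had any of the other motifs, while the Tgfb1 window had 5 GC boxes. Windows were matched for 8 of the 10 members, and not for Tgfb3 and Skil. The expression table is per gene and does not tell which of several start sites was used.

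All 10 members were expressed in every library, at levels that spanned nearly an order of magnitude per kilobase of gene length. In the control, Tgif1 had 564 ± 56.4 normalized counts per kilobase (SD, n = 6), Tgfbr2 508 ± 42.6 and Ltbp4 483 ± 61.8, and the ranges of these neighbors in the order overlapped. Skil followed with 283 ± 48.8, Ltbp3 with 231 ± 25.0 and Tgfbr1 with 222 ± 20.7, and these neighbors overlapped as well, while the lowest Ltbp4 library (399) was above the highest Skil library (339). The ligands came next in the order. Tgfb1 had 178 ± 20.9 normalized counts per kilobase, which overlapped with Tgfbr1, Tgfb3 139 ± 6.97 and Tgfb2 70.8 ± 16.4, and the 3 ligands did not overlap with each other in these libraries, while Ltbp1, at 70.1 ± 18.6, overlapped with Tgfb2. Gene lengths are those of the deposited table and do not take account of which transcripts were made.

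**Figure D1:**
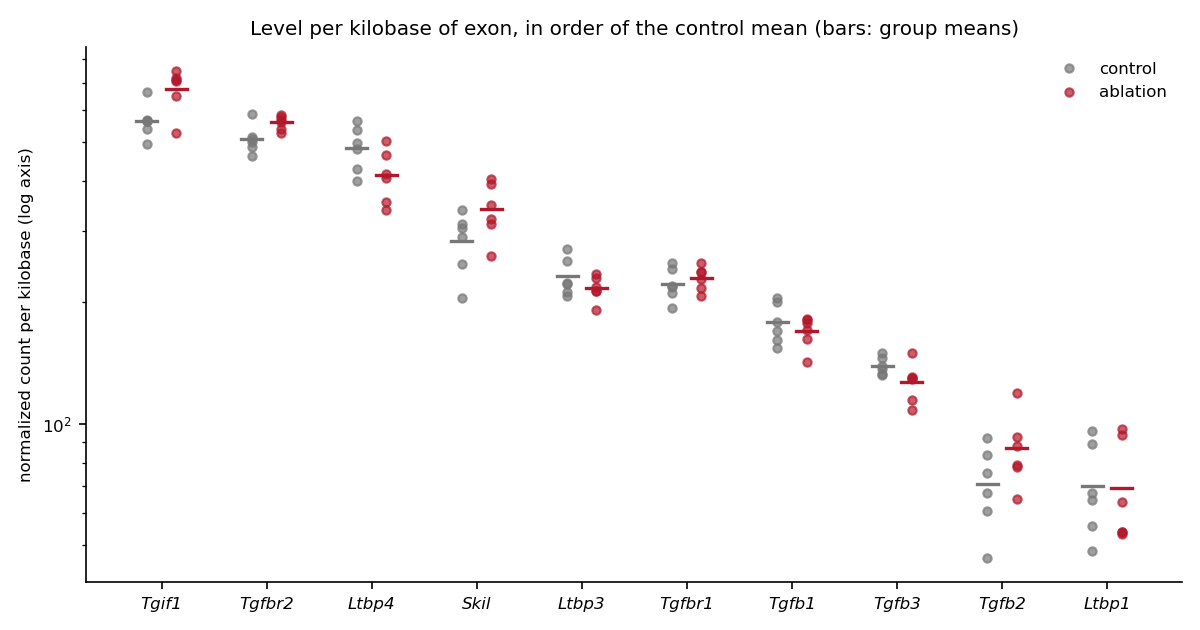
Normalized count per kilobase of gene length on a log axis for the 10 members, in the order of their control means, with 1 point per library (6 control, grey, and 6 ablation, red) and a bar at each group mean. Tgif1, Tgfbr2 and Ltbp4 lie highest (control means 564, 508 and 483), and Tgfb2 and Ltbp1 lowest (70.8 and 70.1).

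The organoids were checked against markers of the cell types they could hold. The 8 basal cell markers, all tested, summed to between 538400 and 692200 normalized counts per library, with the basal keratin Krt5 the most abundant. The 5 secretory markers, led by Cyp2f2, summed to between 26250 and 78660, and the 5 markers of multiciliated cells to between 131.6 and 204.5. Markers of fibroblasts, endothelium and smooth muscle were near 0. The 8 fibroblast markers summed to between 17.98 and 48.25 normalized counts, with Pdgfra the most abundant (mean 15.7) and Thy1 at 0 in every library, and the 4 endothelial markers to at most 16.4, with Kdr at 0. The 4 smooth muscle markers summed to at most 6.57, the 4 alveolar type II markers to at most 14.5 with Sftpc and Sftpb at 0, the 3 goblet markers to at most 25.7, and the 5 immune markers to between 104.2 and 175.3, a range that overlapped that of the multiciliated markers, with Cd68 the most abundant (mean 122) and Adgre1 at 0. The ranges of these sums overlapped between ablation and control libraries for each of these lists. Within pairs, the basal sum was higher after ablation in 5 of 6, and the secretory, multiciliated and goblet sums were each lower in 4 of 6. The tested markers of these last 3 types (3, 2 and 1 genes) all had lower means after ablation, and none of them passed. Among the sums near 0, that of smooth muscle was higher in 6 of 6 pairs and that of alveolar type II cells lower in 6 of 6. These sums hold few reads, and some pairs barely differed. The alveolar type II sums were 0.9896 after ablation and 1.007 in the control in pair 4, and 4.693 and 4.787 in pair 5. The smooth muscle sums of pair 1 were 2.924 and 2.895. Such gaps are within the scaling of the libraries, so these directions are not read as a change. Of the 8 basal markers, 4 had a higher and 4 a lower mean, and 1, Trp63, passed in the paired model described below. It encodes the transcription factor that defines basal cells, and the Trp63 promoter of the vector is the human one. Trp63 had 9844 ± 1141 normalized counts after ablation and 7505 ± 916.7 in the control and was higher in 6 of 6 pairs (log2 difference 0.39, limma adjusted p = 0.187, and 0.00825 in the paired model). Its adjusted p in that model was 0.0541 without pair 4 and 0.11 in library set 1 alone. Mitochondrial transcripts made up 1.29% to 1.79% of the normalized counts in all libraries. The part of these markers in the results below was not tested. In bulk RNA, fewer cells that express a gene and less of its RNA per cell cannot be told apart.

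After ablation, Tgfb2, Skil and Tgif1 were higher than in the paired control in 6 of 6 pairs and Ltbp4 was lower in 6 of 6 pairs. Among all genes tested, 5.17% were higher in all pairs and 4.63% lower. The differences were small: the mean log2 differences of the 10 members ran from -0.23 for Ltbp4 to 0.30 for Tgfb2, with a median of 0.01 against -0.00365 for all genes, and the differences within single pairs lay between -0.49 and 0.61. The groups overlapped in all 10 members, as they did for all but 0.457% of genes. Both models below were fitted with limma over all genes, with Benjamini-Hochberg adjusted p-values. In the library set model, in which library set was put in the place of a batch that the study's methods name without saying what it was, 0 of the 10 members passed an adjusted p of 0.05, as did 0 of all genes (0%), and 4 of the 10 (Tgfbr2, Ltbp4, Skil and Tgif1) had an unadjusted p under 0.05, against 7.85% of all genes. On the 9 libraries with recovered reads, edgeR called 0 genes (807 at an unadjusted p under 0.05) and DESeq2 called 10, none of them a member. In the paired model, with pair in place of library set, 3 members passed (Tgfb2 and Tgif1 higher, Ltbp4 lower), against 1.09% of all genes, 0.674% higher and 0.413% lower. Without pair 4 the paired model called 8 genes in place of 150, and none of the members. The study itself named Tgfb2, Ltbp4 and Skil from these libraries, so their place among the members is no independent evidence of a change.

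**Figure D2:**
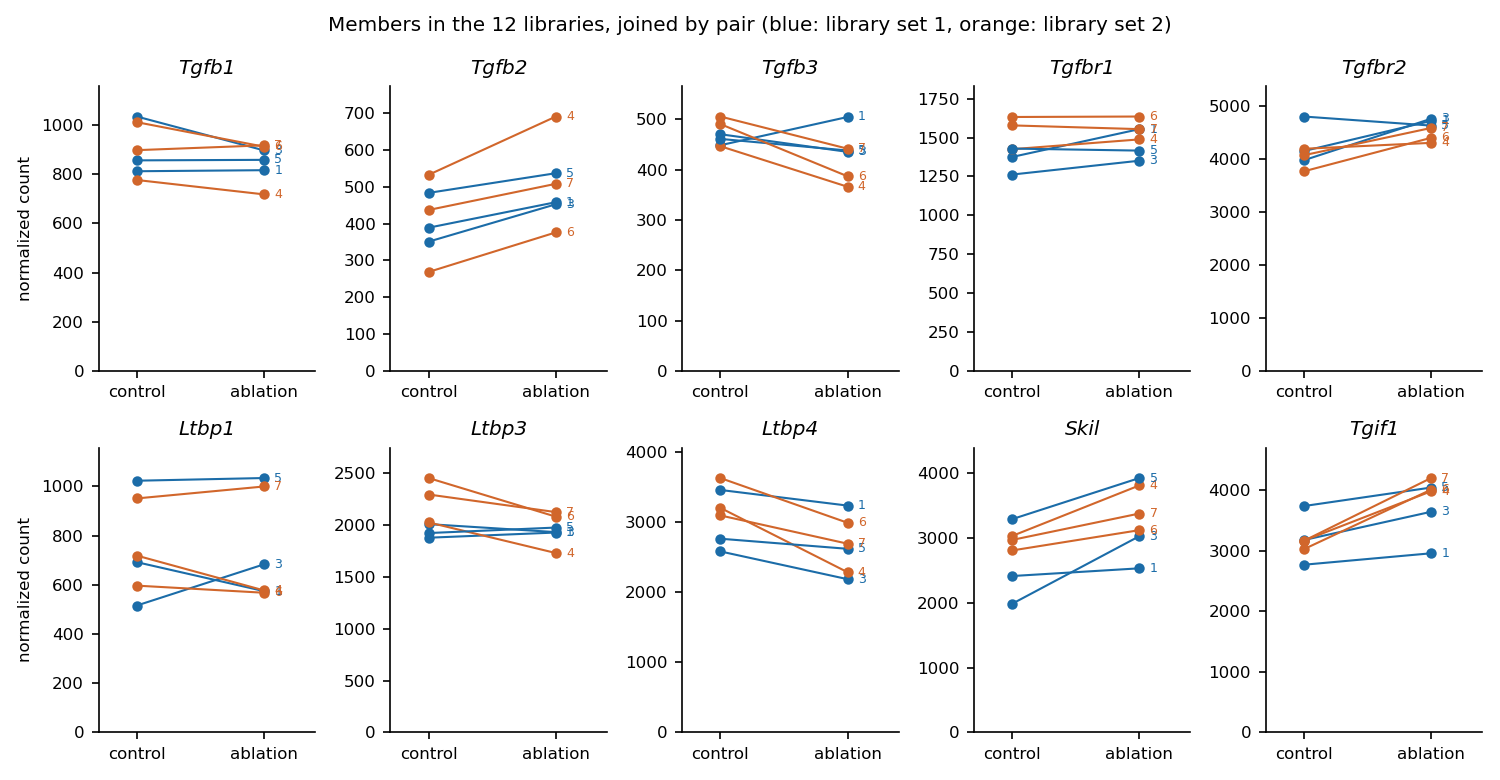
Normalized counts of each member (vertical axes, from 0) in control and ablation libraries, with a line for each of the 6 pairs, numbered at the right (blue, library set 1; orange, library set 2). All 6 lines point upward for Tgfb2, Skil and Tgif1 and downward for Ltbp4, and the 2 groups overlap in every panel.

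Of the 3 ligands, Tgfb2 was higher after ablation in all pairs. Tgfb2 (ENSMUSG00000039239.14, chr1:186622792-186705989, minus strand) lay between 376 and 691 normalized counts in ablation libraries (median 483) and between 269 and 532 in controls (median 413). The highest value of each group was in pair 4 and the lowest in pair 6, so that the pairs differed from each other by more than ablation differed from control within them. The mean was 504 ± 107 (SD, n = 6) in ablation libraries and 410 ± 94.9 in controls, and the log2 difference was 0.30 ± 0.17 (standard error, SE) in the library set model (limma, adjusted p = 0.698) and 0.30 ± 0.06 in the paired model (adjusted p = 0.0332). The smallest difference within a pair was 0.15 in pair 5 and the largest 0.48 in pair 6. The adjusted p in the paired model was 0.048 without pair 1, and 0.0875, 0.144, 0.052, 0.0696 and 0.0518 without pairs 3, 4, 5, 6 and 7, so the call was lost when any one of these 5 pairs was left out. An exon of Gm29491 lies on the opposite strand over 124 bases of Tgfb2, with a mean of 0.912 normalized counts, and the strand setting of the counting is not given in the sources used here.

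Tgfb1 and Tgfb3 did not pass in either model. Tgfb1 (chr7:25687002-25705077, plus strand), the ligand with the highest level per kilobase, had 853 ± 76.3 normalized counts after ablation and 898 ± 105 in the control and was higher in 3 of 6 pairs (log2 difference -0.07, limma adjusted p = 0.862, and 0.473 in the paired model). Without pair 3 the Tgfb1 difference was -0.0442. Tgfb3 (chr12:86056745-86079041, minus strand) had 429 ± 48.5 in ablation libraries and 471 ± 23.6 in controls (log2 difference -0.14, adjusted p = 0.692, and 0.317 in the paired model). Tgfb3 was lower in 5 of 6 pairs, the exception being pair 1, where it was higher by 0.17.

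The make-up of the ligand RNA followed from these values. Of the summed level per kilobase of the 3 ligands, Tgfb1 made up 45.8% ± 4.17 (SD, n = 6) in the control and 44.2% ± 4.06 after ablation. Tgfb3 made up 35.9% ± 1.22 and 33.1% ± 2.94. Tgfb2 made up 18.3% ± 4.46 in the control and 22.7% ± 5.02 after ablation, from 11.8% in control 6 to 32.3% in ablation 4. Tgfb1 held the largest share in all 12 libraries and Tgfb2 the smallest in 11, while in ablation 4 Tgfb3 (29.3%) was the smallest. These shares restate the counts above and were not tested.

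**Figure D3:**
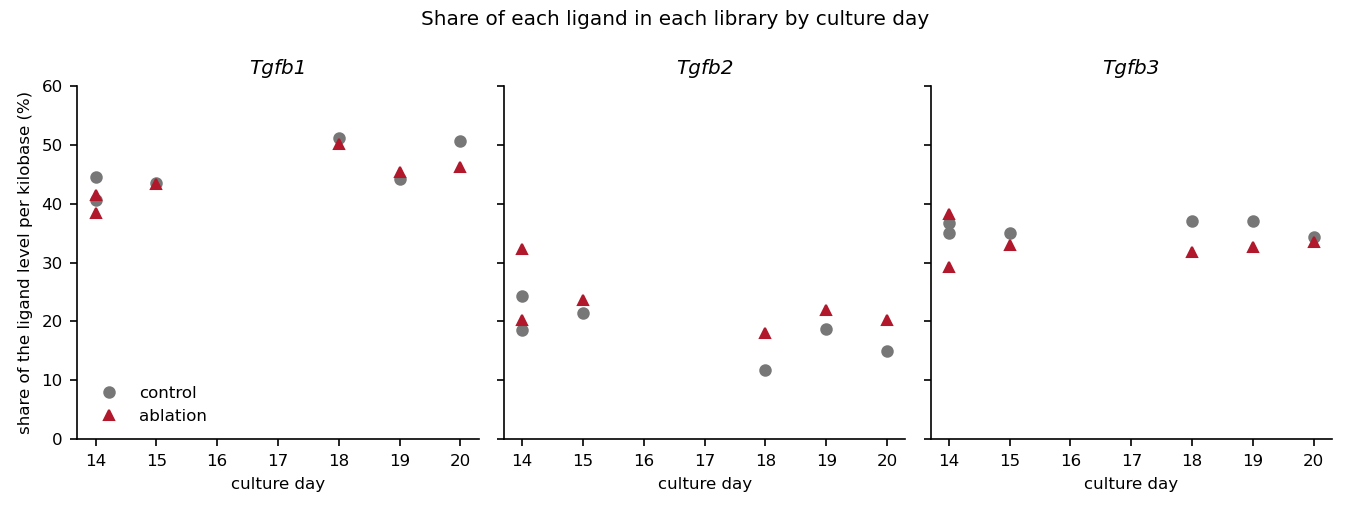
Share of each ligand in the summed ligand level per kilobase (percent, vertical axis) against culture day (horizontal axis), with 1 point for each of 12 libraries (control, grey circles; ablation, red triangles). The Tgfb2 share runs from 11.8% in control 6 to 32.3% in ablation 4, and in each pair the ablation value is above that of its control.

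The receptor genes were expressed evenly across libraries. Tgfbr2 (chr9:116084293-116175360, minus strand) had 4568 ± 180 normalized counts after ablation and 4161 ± 349 in the control, and was higher in 5 of 6 pairs, with pair 5 the exception. The log2 difference was 0.14 (limma, unadjusted p = 0.0162, adjusted p = 0.586, and adjusted p = 0.143 in the paired model), so it did not pass. Tgfbr1 (chr4:47353222-47414931, plus strand) had 1500 ± 103 in ablation libraries and 1450 ± 135 in controls, and its log2 difference of 0.05 (0.0255 without pair 1) had an adjusted p of 0.848, or 0.561 in the paired model of limma. The SE of both differences in the paired model was 0.04.

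The latent binding proteins Ltbp1, Ltbp3 and Ltbp4 all had mean differences below 0, of which that of Ltbp4 passed in the paired model. Ltbp4 (ENSMUSG00000040488.18, chr7:27305136-27337692, minus strand), which binds latent TGF-beta and also takes part in elastic fiber assembly, lay between 2184 and 3233 normalized counts in ablation libraries (median 2654) and between 2580 and 3626 in controls (median 3147). The groups overlapped, and the ablation library was the lower one in each pair, with differences of -0.08 in pair 5 to -0.49 in pair 4. Ltbp4 had a mean of 2666 ± 402 in ablation libraries and 3119 ± 399 in controls, a log2 difference of -0.23 ± 0.10 (SE) in the library set model (limma, adjusted p = 0.630) and of -0.23 ± 0.05 in the paired model (adjusted p = 0.0488). That call was near the threshold: the adjusted p was 0.0443 without pair 1 and 0.105, 0.15, 0.0649, 0.087 and 0.0857 without pairs 3, 4, 5, 6 and 7. It was also lost with a minimum of 50 normalized counts (0.0508), with libraries scaled to the same total (0.0571) and with quantile normalization (0.0526), and held with no filter on low values (0.0052). In the 9 libraries whose reads could be recovered, which leave out ablation 3, ablation 4 and control 4, the log2 difference was -0.11 with limma.

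Ltbp3 (chr19:5740904-5758532, plus strand) had 1963 ± 139 normalized counts after ablation and 2099 ± 227 in the control (log2 difference -0.09, limma adjusted p = 0.754, and 0.320 in the paired model) and was lower in 4 of 6 pairs. Ltbp1 (chr17:75005568-75392512, plus strand) was the most variable member, with 568 to 1034 normalized counts in ablation libraries (median 630) and 516 to 1023 in controls (median 705). Its level differed mainly between pairs: both libraries of pairs 5 and 7 lay at 951 or above, and all other libraries at 719 or below. Ltbp1 was higher in 3 of 6 pairs, and its log2 difference of -0.03 (adjusted p = 0.988, and 0.897 in the paired model of limma) changed sign without pair 1 or pair 4.

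Both nuclear repressors were higher after ablation in every pair, and Tgif1 passed in the paired model. Tgif1 (ENSMUSG00000047407.17, chr17:70844205-70853546, minus strand), a homeodomain protein that binds Smads and recruits co-repressors, lay between 2956 and 4198 normalized counts in ablation libraries (median 3993) and between 2767 and 3735 in controls (median 3162). Pair 1 was lowest in both groups, and 4 of the 6 ablation libraries were above every control library. The mean was 3803 ± 454 in ablation libraries and 3171 ± 317 in controls, and the log2 difference was 0.26 ± 0.09 (SE) in the library set model (limma, unadjusted p = 0.00969, adjusted p = 0.543) and 0.26 ± 0.05 in the paired model (adjusted p = 0.0245). The call held without pairs 1, 3 and 5 (adjusted p = 0.0208, 0.0464 and 0.0418) and was lost without pairs 4, 6 and 7 (0.116, 0.0565 and 0.0622).

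Skil (chr3:31095058-31122577, plus strand), which encodes the Smad-binding repressor SnoN and is itself a transcriptional target of TGF-beta, lay between 2528 and 3919 normalized counts in ablation libraries (median 3244) and between 1981 and 3285 in controls (median 2884). The differences within pairs were uneven, from 0.07 in pair 1 to 0.61 in pair 3, where the control was the lowest library of all. The mean was 3294 ± 520 in ablation libraries and 2745 ± 473 in controls, a log2 difference of 0.27 ± 0.12 (SE; limma, adjusted p = 0.629). In the paired model the adjusted p was 0.0556, which did not pass. It was 0.0353 without pair 1, and 0.0584 to 0.193, not passing, when any other pair was left out. Skil passed in this model with no filter on low values (adjusted p = 0.00411) and with libraries scaled to the same total (0.0497). With the variances moderated by limma's plain eBayes, without trend and robust estimation, adjusted p-values in the paired model were 0.121 for Tgfb2, 0.164 for Tgif1, 0.198 for Ltbp4 and 0.204 for Skil, so that none of the members passed.

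**Figure D4:**
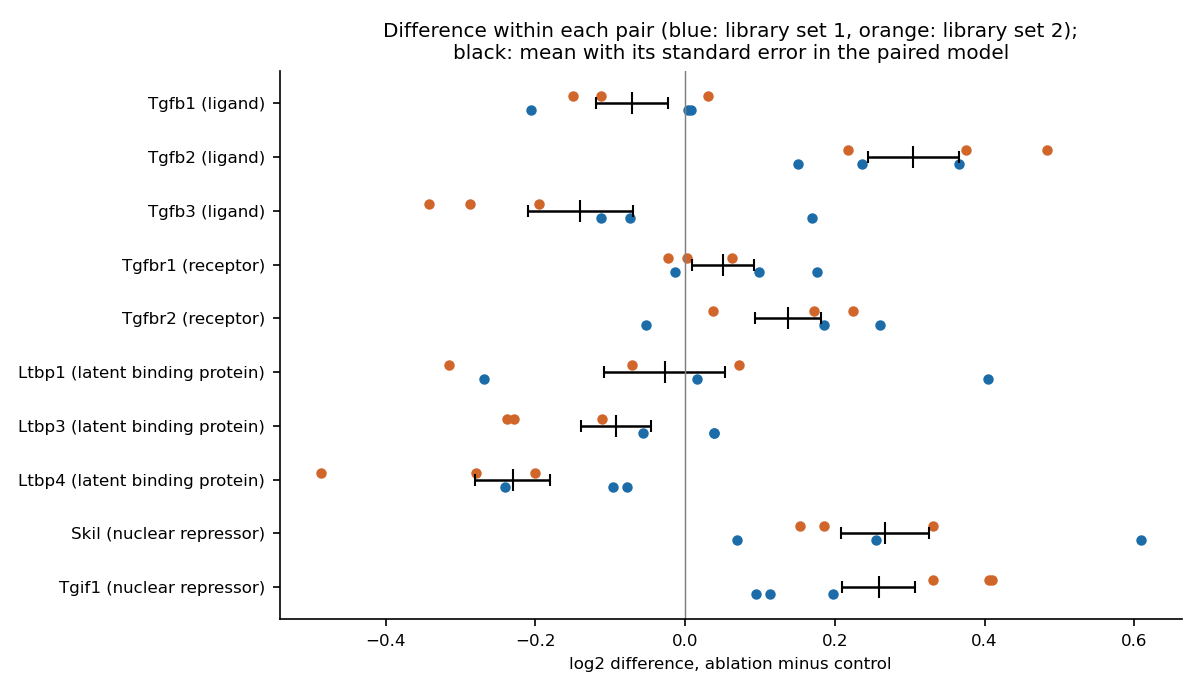
Log2 difference between ablation and control within each of the 6 pairs (points; blue, library set 1; orange, library set 2) for the 10 members, with the mean and its SE from the paired model in black. All points of Tgfb2, Skil and Tgif1 lie above 0 and all points of Ltbp4 below 0, and the 3 points of library set 2 for Tgif1 (0.33 to 0.41) lie above those of library set 1 (0.10 to 0.20).

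The response was also compared between the library sets. In library set 1 alone, which holds none of the controls with ablation in their titles, the log2 differences in the paired model were 0.25 for Tgfb2, 0.14 for Tgif1, 0.31 for Skil and -0.14 for Ltbp4, and none passed (limma, adjusted p = 0.261, 0.287, 0.253 and 0.307). In library set 2 alone they were 0.36, 0.38, 0.22 and -0.32, and Tgif1 passed (adjusted p = 0.0158), while Tgfb2, Skil and Ltbp4 had adjusted p-values of 0.106, 0.131 and 0.0553. The difference between the sets was tested as an interaction: 0 of the 10 members passed, as did 0 of all genes (0%; limma, 231 at an unadjusted p under 0.05), and with the pair as a term 3 members (Tgfb3, Ltbp3 and Tgif1) had an unadjusted p under 0.05, against 7.88% of all genes. For Tgif1 the response in set 2 exceeded that in set 1 by 0.25 on the log2 scale (unadjusted p = 0.00433 with the pair as a term, adjusted p = 0.439). Tgfb3 and Ltbp3 were lower after ablation in all 3 pairs of library set 2 (differences of -0.20 to -0.34 and -0.11 to -0.24), and of mixed sign in library set 1, with unadjusted interaction p-values of 0.0449 and 0.0227 from limma (adjusted p = 0.630 and 0.603). The library sets also differ in passage and date, although pairs 4 and 5, of different sets, share a passage, and the part of passage and date in these differences was not tested.

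Pairs were also compared by culture day, and no member passed. Pairs 3, 6 and 7 were harvested on days 18 to 20 and pairs 1, 4 and 5 on days 14 and 15, and pair means were compared in a model that also held the library set. Passage and date, which also differ among these pairs, cannot be told apart from culture day here, although pairs 1 and 3 share a passage. Of the 10 members 0 passed (0.00725% of all genes did), and 1, Tgfb1, had an unadjusted p under 0.05, against 6.49% of all genes. The pair means of Tgfb1 were 965, 961 and 907 normalized counts in pairs 3, 6 and 7, and 814, 747 and 857 in pairs 1, 4 and 5, so that the later pairs lay above the earlier ones (log2 difference 0.26 ± 0.08, limma, unadjusted p = 0.0115, adjusted p = 0.762). Tgfb2 had pair means of 402, 322 and 473 on the later days and 424, 612 and 510 on the earlier days, a log2 difference of -0.43 ± 0.19 (unadjusted p = 0.0582, adjusted p = 0.773). The other members differed by between -0.22 (Skil) and 0.14 (Ltbp3).

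The other genes of the pathway were followed in 7 lists, which held 109 genes, of which 108 were in the table and 85 were tested. Of these 85 genes, 43 had a higher and 42 a lower mean after ablation, with a median log2 difference of 0.00811 against -0.00365 over all genes. In the library set model 0 of the 85 passed, as did 0 of all genes, and in the paired model 2 did, against 1.09% of all genes (0.674% higher). These were Bhlhe40 and Klf10, both higher and both from the list of target genes. Bhlhe40, a basic helix-loop-helix repressor, had 4265 ± 594 normalized counts after ablation and 3482 ± 872 in the control, and was higher in 6 of 6 pairs (log2 difference 0.32, limma adjusted p = 0.629, and 0.0209 in the paired model). Klf10, the TGF-beta-inducible early gene that encodes a zinc finger factor, had 2390 ± 315 and 2045 ± 215 (log2 difference 0.22, adjusted p = 0.619, and 0.0352 in the paired model). The call of Bhlhe40 was lost without pair 4 (paired adjusted p = 0.108), and that of Klf10 without pair 1, 3, 4 or 5 (0.0566, 0.103, 0.144 and 0.11), and in library set 1 alone neither passed (0.11 and 0.0899). Over the 21 tested target genes, 11 were higher and 10 lower, with a median log2 difference of 0.03.

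**Figure D5:**
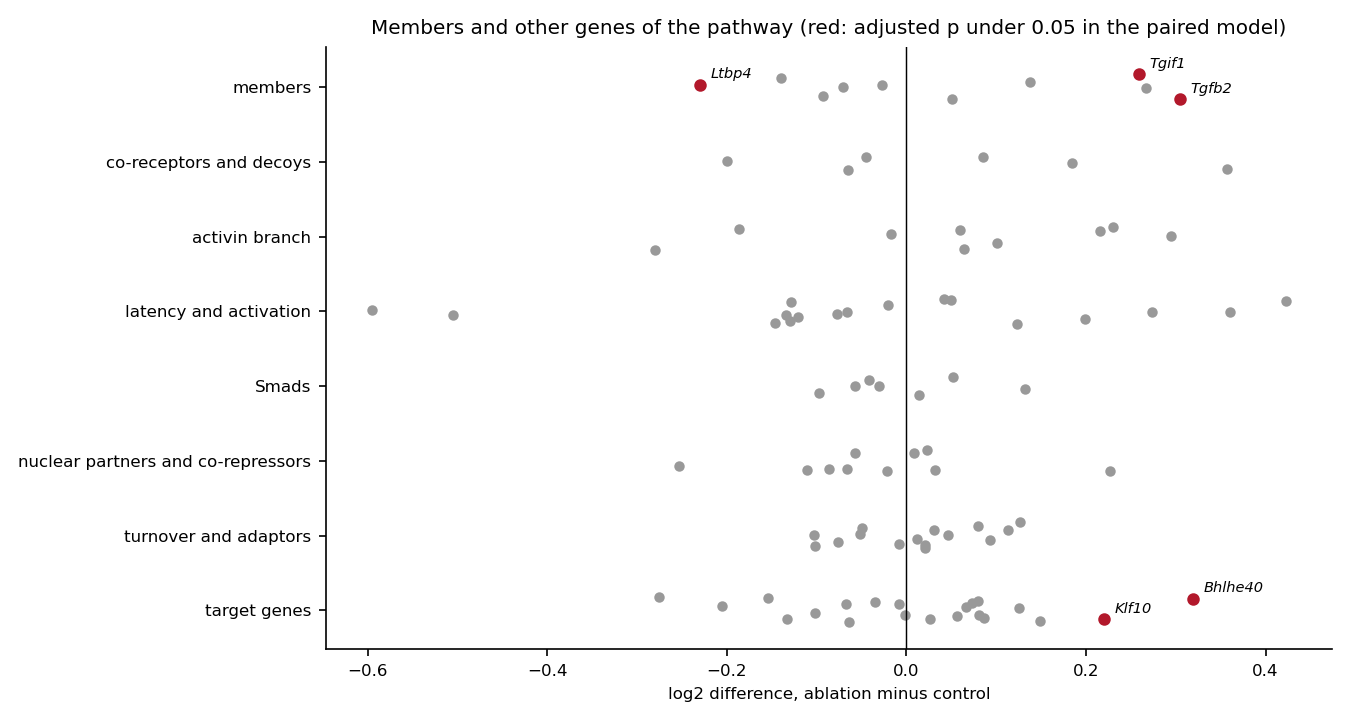
Log2 difference between ablation and control (horizontal axis) for the 10 members and the tested genes of 7 other lists of the pathway, 1 point per gene, spread vertically for legibility, with genes of adjusted p under 0.05 in the paired model in red and named. Named genes are Ltbp4, Tgif1 and Tgfb2 among the members and Bhlhe40 and Klf10 among the target genes.

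Within the Smads, 7 of 8 genes were tested, 3 higher and 4 lower, and none passed in either model. Smad4, the shared partner of the receptor-activated Smads and the most abundant of the list, had 3271 ± 99.1 normalized counts after ablation and 3405 ± 142 in the control (log2 difference -0.06, paired adjusted p = 0.434). Smad1, which acts mainly downstream of bone morphogenetic proteins, was higher in 6 of 6 pairs (log2 difference 0.13, limma adjusted p = 0.619, and 0.160 in the paired model). The inhibitory Smad6 had a log2 difference of -0.10 (paired adjusted p = 0.518). In the activin branch, 9 of 13 genes were tested, 6 higher and 3 lower. Here the activin-binding protein gene Fst was higher in 6 of 6 pairs (1360 ± 225 against 1144 ± 355, log2 difference 0.29, paired adjusted p = 0.107) and its relative Fstl3 lower in 6 of 6 (119 ± 15.9 against 145 ± 13.0, log2 difference -0.28, paired adjusted p = 0.148), neither of which passed. The Fst differences were 0.00331, 0.0428 and 0.202 in pairs 1, 3 and 5 of library set 1 and 0.338, 0.703 and 0.476 in pairs 4, 6 and 7 of library set 2 (unadjusted p = 0.00144 for the difference between the sets in limma with the pair as a term, adjusted p = 0.369). The type II activin receptor gene Acvr2a was higher in 6 of 6 pairs by a mean of 0.10 (paired adjusted p = 0.180).

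Of the co-receptors and decoys, 6 of 9 genes were tested, 3 higher and 3 lower, and none passed. Cd109, a surface antagonist of the TGF-beta receptors, was the most abundant, with 3419 ± 108 normalized counts after ablation and 3022 ± 345 in the control, and was higher in 5 of 6 pairs (log2 difference 0.18, paired adjusted p = 0.115). Tgfbr3l had a log2 difference of 0.36 at a mean of 47.2 normalized counts after ablation, but it was higher in only 3 of 6 pairs, and without pair 5 the difference was 0.11. The ligand-binding decoy Vasn had a difference of -0.20 at a mean of 114 normalized counts, and of -0.12 without pair 4 or pair 5. Of the 22 genes for latency and activation, 17 were tested, 7 higher and 10 lower, and none passed. The membrane protease gene Mmp14 was the most abundant of them (log2 difference 0.04, paired adjusted p = 0.669). It differed by 0.25 in pair 3 and by -0.08 to 0.10 in the other pairs. The metalloprotease gene Tll1 and the latent TGF-beta anchor gene Lrrc32 differed most, by -0.60 and -0.51, at means of 18.4 and 22.4 normalized counts after ablation. These values also moved with single pairs, to -0.37 for Tll1 without pair 1 and to -0.83 for Lrrc32 without pair 5, and in library set 1 alone the Lrrc32 difference was -0.04 (paired adjusted p = 0.974). Among nuclear partners and co-repressors, 10 of 12 were tested, 4 higher and 6 lower. Tgif2, the paralog of Tgif1, was lower in 6 of 6 pairs, with 267 ± 53.2 against 313 ± 34.5 normalized counts (log2 difference -0.25, limma adjusted p = 0.633, and 0.161 in the paired model). Without pair 6, where ablation 6 had 162.9 normalized counts, the Tgif2 difference was -0.16. The co-repressor gene Ctbp1 was lower in 6 of 6, with a mean difference of -0.09 (paired adjusted p = 0.223). Zeb1 had a mean of 10.7 normalized counts after ablation. All 15 genes for turnover and adaptors were tested, 9 higher and 6 lower, with a median log2 difference of 0.02 and none passing, among them the ubiquitin ligase gene Nedd4l (0.13, paired adjusted p = 0.139), and the receptor-binding adaptor gene Strap, whose mean difference of -0.01 was near 0. Usp11 was lower in 5 of 6 pairs, and its mean log2 difference of 0.11 rested on pair 3, where control 3 was low (15.35 normalized counts): without that pair it was -0.31 (paired adjusted p = 0.332).

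The study grouped Ltbp4, Tgfb2 and Skil with Jun and Trp53 under TGF-beta receptor signaling, a list it chose on these libraries, which makes it no independent evidence for them. The study drew this list from genes it called at an adjusted p under 0.05 in DESeq2 with condition and batch. It also reported Hbegf as upregulated. The limma models used here are a different method. Jun, an AP-1 subunit, lay between 3217 and 4942 normalized counts in ablation libraries and between 2160 and 4058 in controls and was higher in 6 of 6 pairs (paired adjusted p = 0.0209, 0.104 without pair 4 and 0.11 in library set 1 alone), while Trp53 did not pass in either model (log2 difference -0.23, limma adjusted p = 0.614, and 0.0614 in the paired model) and was lower in 5 of 6 pairs, with pair 7 the exception. Hbegf, a ligand of the epidermal growth factor receptor, was higher in 6 of 6 pairs, by 0.02 in pair 5 to 0.55 in pair 7 (log2 difference 0.31, limma adjusted p = 0.783, and 0.0809 in the paired model). Egfr had a log2 difference of 0.08 (paired adjusted p = 0.330), with 0.249 in pair 1 and -0.035 to 0.127 in the other pairs. The Hbegf response, like that of Tgif1, was larger in library set 2, by 0.46 on the log2 scale (unadjusted p = 9.7e-05 in limma with the pair as a term, adjusted p = 0.222).

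The genes whose log2 values followed those of Tgfb2, Ltbp4 and Skil most closely over the 12 libraries are given as a description, since these libraries share pairs, treatment and library sets. For Tgfb2 they were F3, which encodes tissue factor (Pearson's r = 0.93, Spearman's rho = 0.888), Brox (0.906 and 0.811) and Myzap (0.899 and 0.895). For Ltbp4 they were Klhl26 (r = 0.939, rho = 0.909), the cobalamin carrier gene Tcn2 (0.938 and 0.937) and Spef1 (0.931 and 0.909). Klhl26 was lower in 6 of 6 pairs (paired adjusted p = 0.0465 with limma, 0.067 to 0.161 when any 1 pair was left out, and 0.29 in library set 1 alone). For Skil they were Scaf8 (r = 0.971, rho = 0.958), the stress-response gene Nupr1 (0.956 and 0.965) and Fnbp1l (0.952 and 0.825), and Nupr1 was higher after ablation in 5 of 6 pairs (paired adjusted p = 0.0451, 0.00408 without pair 1, 0.0766 to 0.184 when any other pair was left out, and 0.368 in library set 1 alone).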

How the data were processed

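The authors processed reads with nf-core/rnaseq 1.4.2 against GENCODE annotation of GRCm38.p6 and divided each library by its size factor in DESeq2 (Galaxy tool 2.11.40.6). The deposited signal values used here are these normalized counts, which summed to 27600452 to 28247162 per ablation library (median 27700102) and 27297950 to 28504390 per control library (median 27950316). Columns of the authors' comparison (means, fold changes, statistics and p-values) were not used. Gene lengths were taken as deposited, and every sample column was matched to a sample. All low values (100%), the only ones checked, were whole multiples of 1 step per library, within 0.1 read. Larger values were rounded to whole reads without this check. Whole reads were recovered for 9 libraries (23631212 to 29775699 reads, median 28341576), in which edgeR called 0 genes. The steps of ablation 3, ablation 4 and control 4 lay too near 1 for the rule used, and no count model was run on them.

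Log2 values (normalized counts plus 1) were fitted with limma 3.58.1 in R 4.3.3, with trended and robust eBayes, over the 13792 genes that reached 10 normalized counts in 6 or more libraries. The model held condition and library set, since the methods name a batch without saying what it was. The other model held condition and pair. Libraries of a number share passage and culture day by their titles, and their deviations from group means correlated across genes with r = 0.618, 0.493, 0.205, 0.317, 0.381 and 0.332 (pairs 1, 3, 4, 5, 6 and 7), against mean r of -0.135 to -0.0248 with other numbers. In 5 of 6 pairs the ablation library correlated best with its own number, while ablation 4 correlated better with control 5 (r = 0.286). In simulated data with 200 of 13792 genes changed by 1 on the log2 scale, more than any member differed, 168 were recovered by the library set model and 191 by the paired model, and unchanged genes were called 0 and 7 times. Smaller changes were not simulated. edgeR 4.0.16 and DESeq2 1.42.0 were run as alternatives.

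Members and lists were chosen with earlier results of these data known. The genes named are the members, Jun, Trp53, Hbegf and Egfr, from each list the most abundant gene, the 2 with the largest change and any past the threshold in either model, and the 3 genes most correlated with Tgfb2, Ltbp4 and Skil. Some results that this rule would name are not reported here. Promoter sequences are from RefSeq on GRCm38.p6.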

Additional observations from a re-analysis of the deposited data

Results flagged for a closer look

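For each of the 45 genes named, a library was picked out where its gap to the nearest other library of its group as a share of the group's range exceeded the 95% critical value of Dixon's test for 6 values. Among 90 groups 4 were picked out, and chance gives about 1 in 20. None of the 10 members was among them. Egfr had 1661 normalized counts in control 6, against 1938 to 2080 in the other controls. Tgif2 had 162.9 in ablation 6, against 270.6 to 309.7. Nedd4l had 2081 in ablation 3, against 2443 to 2546. Usp11 had 15.35 in control 3, against 59.26 to 76.58.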

How the results depend on the processing

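Against 0 genes in the library set model of limma (1083 at an unadjusted p under 0.05), the replicate block called 150, no filter on low values 3, scaling to the same total 3 and DESeq2 on 9 libraries 10, while edgeR on these 9 libraries called 0 (807 unadjusted) and leaving out any pair 0. The paired model's 150 became 356 with no filter, 0 with plain eBayes, 16 in library set 1 alone, 109 in library set 2 alone, and 8 (without pair 4) to 176 (without pair 1) when a pair was left out, with 90 without pair 3 and 77 without pair 5. The late against early comparison called 1 gene, 12 with no filter and 0 without the library set or in control libraries alone, and the comparison of library sets 0, and 1 with the replicate block. The paired alternatives with another pseudocount, filter, scaling or eBayes, limma on the 9 libraries, and the left-out pairs and library set 1 alone for 12 genes other than members were added after the data were seen. The block changed the call of Tgfb2, Ltbp4 and Tgif1 and of no other member. Over 370 alternatives, 12 member results changed direction, none of them called: Ltbp1 was 0.0672 with edgeR, 0.0717 with DESeq2 and 0.0592 with limma on 9 libraries, 0.0506 in library set 1 alone (paired), and -0.114 (without pair 3) to 0.0305 (without pair 4) in both models when a pair was left out, Ltbp3 was 0.00695 in library set 1 alone, and for culture day Tgfbr1 was 0.0468 without the library set and 0.00964 in controls alone, and Tgif1 -0.0258 in controls alone. Without a pair, the paired log2 difference ran from 0.27 to 0.34 for Tgfb2, 0.23 to 0.29 for Tgif1, 0.20 to 0.31 for Skil and -0.26 to -0.18 for Ltbp4. Of those 12 genes, Usp11 changed direction, with -0.308 (without pair 3) to 0.236 (without pair 6) when a pair was left out, and 0.576 in library set 1 alone. The cause of these changes was not tested. The lowest value of any member was 269 normalized counts, for Tgfb2 in control 6.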
